A study of Mus musculus with 4 samples.

Results

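The 91 genes described here encode the translation initiation factors and the aminoacyl-tRNA synthetases of the mouse. They were chosen by name, not by any measured value: all protein-coding genes whose symbol starts with Eif1 to Eif6, or consists of 1 capital letter and "ars" with or without a final 1 or 2, plus Eprs. The rule took in 91 of 21887 protein-coding genes. It also matched 12 entries that are not protein-coding, which were left out. The members are 56 initiation factor genes, 16 genes of cytosolic synthetases, 17 of mitochondrial synthetases, and Gars and Kars, each of which serves both compartments from 1 gene. The initiation factor name also covers proteins that regulate the factors, such as the eIF2 kinases and the eIF4E binding proteins.

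Both cultures consisted of primary chondrocytes, the cells that build cartilage, from C57Bl/6 mice, and the labels name them the hdac3 knockout and the wild type. The knockout culture had received a Cre recombinase adenovirus and the control a GFP adenovirus, and both were profiled by chromatin immunoprecipitation and sequencing for H3K27ac, an acetylation of histone H3 found at active promoters and enhancers. Micromass culture, in which dense spots of cells lay down cartilage matrix, is named in the labels of the Cre samples only. Hdac3 is a histone deacetylase. The labels give no age or sex of the mice, no floxed allele, no time after transduction and no measure of how complete the deletion was. Each culture gave 1 library and 1 peak list, called the Cre list and the GFP list below, so no difference between them has a replicate check and none has a p-value.

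Translation starts when the factor eIF2 brings the initiator tRNA to the small ribosomal subunit, eIF3 and the eIF1 proteins hold that complex ready, and the eIF4F group recruits it to the capped end of an mRNA. eIF5 and eIF5B then release the factors and join the large subunit. Synthetases charge each tRNA with its amino acid, and mammals encode most of them in separate cytosolic and mitochondrial genes. When amino acids run short or proteins misfold, kinases phosphorylate eIF2α, general translation slows, and the transcription factor ATF4 is made. ATF4 is known to act through the C/EBP-ATF response element (CARE), which is found near the start of several cytosolic synthetase genes.

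The 100 bases around the start of 7 members are printed because 5 of them hold the CARE core, which no promoter of a mitochondrial synthetase gene held, and the others are the genes of the highest pileup among the cytosolic synthetases (Dars) and among the initiation factors (Eif2s1). Each runs 5′ to 3′ on the strand of the gene, from 80 bases before the start to 20 bases from the start on, from RefSeq on GRCm38.p6, the build of mm10. Capitals mark a match to the CARE core TGATGNAA or its reverse complement, except at Eif2s1, where they mark a match to the reverse complement of the NRF1 core GCGCATG. Dars held no CARE match in its promoter. Gars lies at chr6:55037921-55038020 (+), Aars at chr8:111033762-111033861 (+), Iars at chr13:49682050-49682149 (+), Tars at chr15:11399639-11399738 (-), Yars at chr4:129189823-129189922 (+), Dars at chr1:128417397-128417496 (-) and Eif2s1 at chr12:78861992-78862091 (+).
Gars: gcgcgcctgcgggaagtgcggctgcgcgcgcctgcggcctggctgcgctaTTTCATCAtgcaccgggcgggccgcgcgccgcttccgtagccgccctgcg
Aars: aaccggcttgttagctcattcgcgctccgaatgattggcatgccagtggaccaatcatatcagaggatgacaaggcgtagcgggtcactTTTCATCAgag
Iars: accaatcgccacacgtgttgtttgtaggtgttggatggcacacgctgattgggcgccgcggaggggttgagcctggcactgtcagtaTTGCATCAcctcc
Tars: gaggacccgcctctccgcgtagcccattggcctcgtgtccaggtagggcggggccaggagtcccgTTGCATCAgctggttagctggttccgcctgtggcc
Yars: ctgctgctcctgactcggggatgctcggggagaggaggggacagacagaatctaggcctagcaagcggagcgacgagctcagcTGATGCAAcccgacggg
Dars: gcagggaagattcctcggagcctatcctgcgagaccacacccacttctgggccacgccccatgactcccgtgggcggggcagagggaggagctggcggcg
Eif2s1: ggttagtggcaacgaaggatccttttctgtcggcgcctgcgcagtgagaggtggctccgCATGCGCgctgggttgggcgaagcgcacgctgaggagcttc

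The Cre list held 13130 peaks over 3264813 bp and the GFP list 12873 peaks over 3236648 bp, and the background expectation of the Cre library was 1.06 times that of the GFP library. The height of a peak is given here as its summit pileup, the number of fragments over the summit, which ran from 7 to 63 in the Cre list and from 7 to 58 in the GFP list with a median of 12 in both. Of 12 chondrocyte marker genes, 12 had a Cre peak inside or within 1 kb and 11 a GFP peak, the exception being Comp. No marker gene of osteoblasts (4 genes), macrophages and blood (5), endothelium (4), muscle (4) or adipocytes (3) had a peak in either list. The targeted gene Hdac3 had 0 peaks in both lists, and the lists therefore do not check its deletion.

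H3K27ac peaks lay at the ends of many more of these genes than of protein-coding genes in general, in both cultures. A gene was counted as marked when a peak summit lay within 1 kb of either annotated end. In the Cre list 33 of 91 members were marked (36.3%, exact 95% interval 26.4 to 47.0), against 12.9% of all protein-coding genes. In the GFP list 43 members were marked (47.3%, 36.7 to 58), against 13.4%. Both lists marked 28 members (30.8%, background 8.66%), only the Cre list 5 (5.49%, background 4.24%) and only the GFP list 15 (16.5%, background 4.77%). In all 48 members were marked in at least 1 list (52.75%, background 17.7%) and 43 in neither (47.25%, background 82.3%). The intervals cover counting error only, since fragments of an amplified library and neighbouring genes are not independent.

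**Figure D1:**
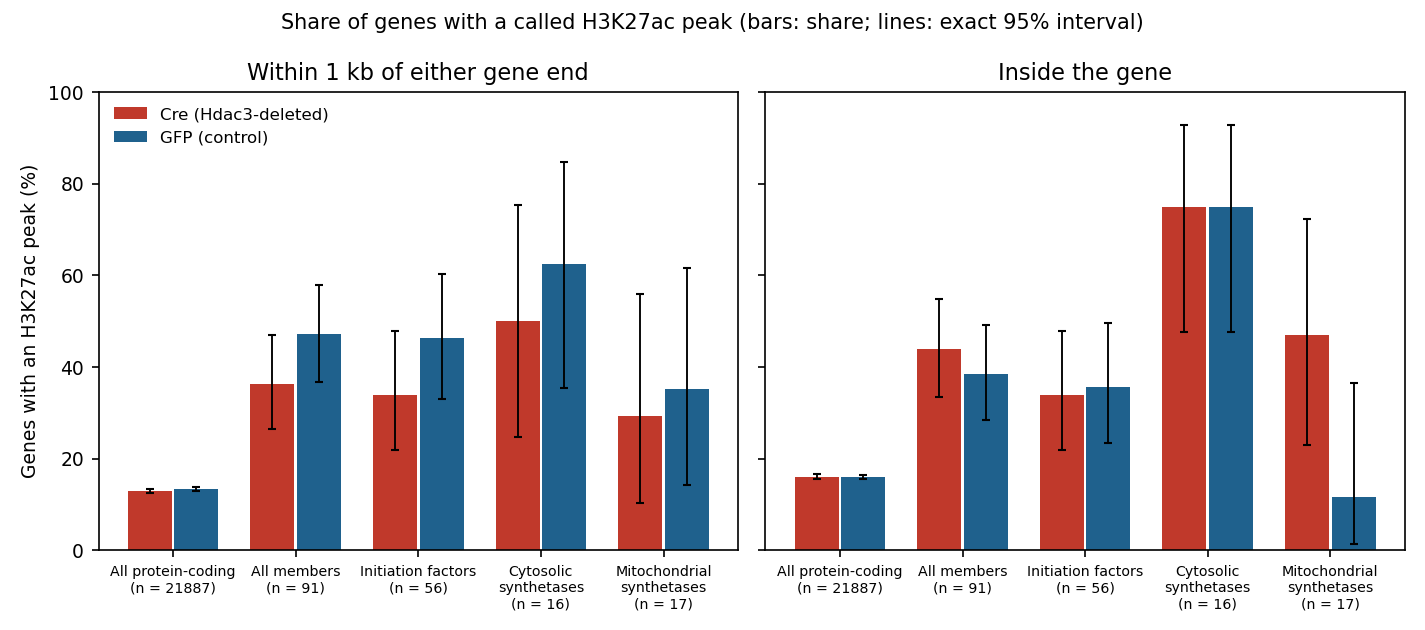
Share of genes with an H3K27ac peak summit within 1 kb of a gene end (left) and inside the gene (right), for all protein-coding genes, all members and 3 of their classes; the dual synthetases Gars and Kars count among all members only. Bars are shares in percent and lines exact 95% intervals; at gene ends every class lies above all protein-coding genes in both lists, and inside genes the mitochondrial synthetases stand at 47.1% in Cre and 11.8% in GFP.

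The excess of members marked only in the GFP list changed with the limit set on peaks. Among the 15 members marked in the GFP list alone the highest gene-end pileup per gene had a median of 13 (8 to 21), and among the 5 in the Cre list alone a median of 13 (11 to 15). When only peaks whose −log10 q-value reached 5 were used, 10 members were marked by the Cre list only and 12 by the GFP list only. With a pileup of at least 15 the counts were 5 and 3.

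The genes of the initiation factors were marked at 19 of 56 in Cre (33.9%, 21.8 to 47.8) and at 26 of 56 in GFP (46.4%, 33.0 to 60.3), with 17 in both and 28 in neither. The marks were spread over all steps of initiation. Both lists marked 2 of 5 genes of eIF1 and eIF1A, 2 of 6 of eIF2 and related factors, 4 of 14 of eIF3, 4 of 12 of eIF4F and its helpers, and 3 of 5 of eIF5, eIF5A, eIF5B and eIF6. Of the 5 eIF2B genes, whose product reloads eIF2 with GTP, none was marked in both lists. Of the 4 eIF2 kinases only Eif2ak3 was marked, in both lists, and of the 4 eIF4E binding proteins and related genes only Eif4ebp1, in both lists.

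Eif2s1, the gene of eIF2α (chr12:78862072-78887010, + strand), had the highest gene-end peak of all members in both cultures. Its pileup was 43 in the Cre library (exact Poisson 95% interval 31.1 to 57.9) and 45 in the GFP library (32.8 to 60.2). The authors' folds of 20.45 and 22.13 ranked at percentile 99.9 of both lists. The summits lay at -167 bp and -163 bp from the start, negative being upstream, and the end of Atp6v1d, a proton pump subunit gene, lies in the same window. The peak therefore belongs to both genes by position. Eif2s3x, the X-linked gene of eIF2γ, had a Cre pileup of 22 and a GFP pileup of 18. Its copy on the Y chromosome, Eif2s3y, had a peak of 14 fragments in the GFP library (7.65 to 23.5, fold 7.70) and none in the Cre list. The whole Cre list held 2 peaks on the Y chromosome and the GFP list 1. Where related genes share stretches of sequence, reads may be assigned to the wrong copy. How far this holds for Eif2s3x and Eif2s3y, Eif3j1 and Eif3j2, or Eif4a1 and Eif4a2 was not measured. How the authors treated reads with several matches is not given in the sources used here.

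Among the genes of eIF3, the scaffold on the small ribosomal subunit, Eif3b was the highest with 39 fragments in the Cre library (27.7 to 53.3) and 30 in the GFP library (20.2 to 42.8). Eif3d, which encodes a subunit able to contact the mRNA cap, had 23 and 15, Eif3a, the largest subunit, 18 and 20, and Eif3j1 12 and 10. The intervals overlapped at each of the 4 genes. Eif3f was marked in the Cre list alone with 11 fragments (fold 5.98). Eif3c, with 13 fragments, and Eif3k, with 11 fragments (fold 6.16), were marked in the GFP list alone. The Eif3k peak lay at an end shared with Map4k1. The other subunit genes had no gene-end peak in either list, among them Eif3e, Eif3i, Eif3l and Eif3m, which had no peak inside the gene either.

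In the cap-binding group, genes of helicases and of cap-binding proteins were among those marked. Eif4e, the cap-binding protein gene, had a Cre pileup of 16 and a GFP pileup of 15. Eif4a2, an RNA helicase gene, had 16 and 18, and Eif4e2, a second cap-binding protein gene, 11 and 9. Eif4g2, which encodes a scaffold related to eIF4G that does not bind eIF4E, had 12 and 19. Eif4g1 and Eif4g3, the genes of the canonical scaffolds, had no peak at an end or inside in either list. The GFP list alone marked Eif4a1 (10 fragments), Eif4a3 (12 fragments, fold 6.67), which encodes a helicase of the exon junction complex, Eif4h (10 fragments) and Eif4b (13 fragments, fold 7.18). The Eif4b peak lay at the 3′ end, where the neighbouring gene Tns2 has an end within 1 kb of the summit.

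Among the genes of start selection and subunit joining, Eif1, Eif1a, Eif5, Eif5a and Eif5b had peaks in both cultures, and Eif1ax, Eif1b, Eif5a2 and Eif6 had no gene-end peak in either. Eif5b, the GTPase that joins the subunits, had 17 fragments in Cre (9.9 to 27.2) and 25 in GFP (16.2 to 36.9). These counts come from different peaks, with summits at -337 bp and -886 bp from the start, and each list held 2 peaks there. All of these peaks lay at an end shared with Txndc9. Eif5, which triggers GTP hydrolysis on eIF2, had 17 and 18, and Eif5a, a factor that also acts in elongation, 18 and 13. Eif1 had 16 and 12 and Eif1a 19 and 16, both genes being needed for accurate start selection. The gene-end peaks of Eif1a lay at an end shared with Tmed7. Eif1ad had 14 fragments in the GFP library alone (fold 7.70), at an end shared with Banf1. Eif2ak3, the gene of the stress kinase PERK, had 19 and 20, and Eif4ebp1, the repressor of eIF4E, had 13 and 12. Eif2b1 had 3 peaks in the Cre list alone, the highest of 15 fragments (fold 7.97), at an end shared with Gtf2h3, and Eif2b3 a peak of 8 fragments in the GFP list alone.

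**Figure D2:**
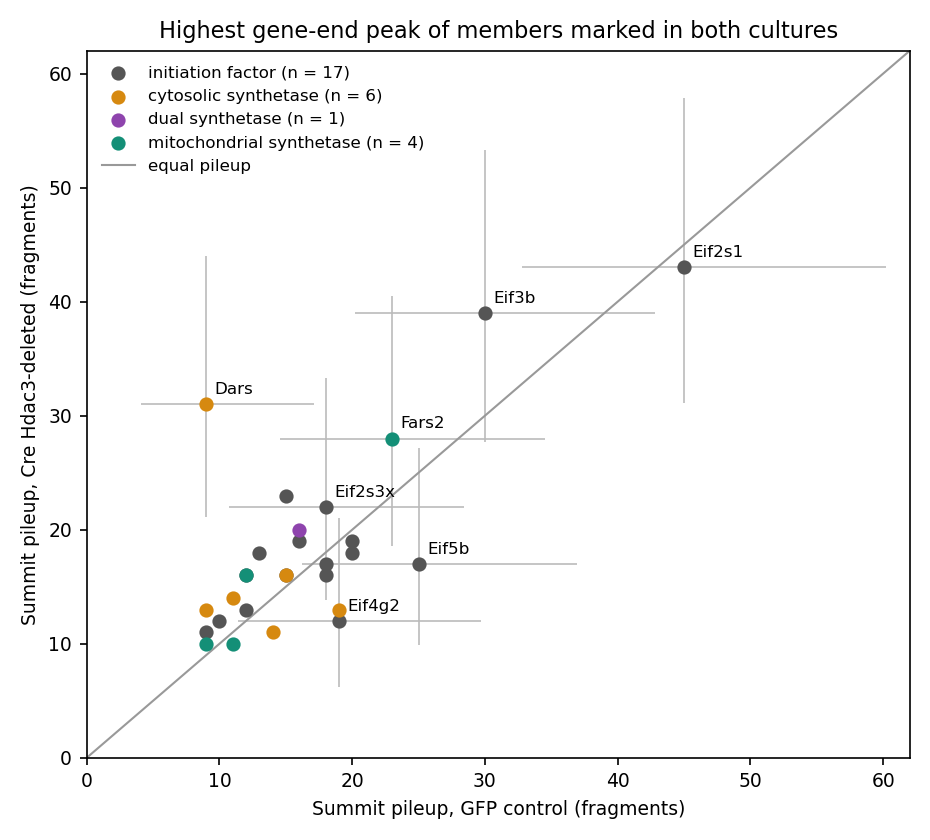
Highest gene-end summit pileup, in fragments, of the 28 members marked in both lists, GFP library on the horizontal and Cre library on the vertical axis; colours give the class and grey lines exact Poisson 95% intervals of the 7 named genes. Most genes lie near the line of equal pileup, and Dars, with 31 and 9 fragments, lies farthest above it.

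Over the 28 members marked in both lists the pileups were close. The Cre pileup was the higher at 18 members and the GFP pileup at 10, and the median ratio of Cre to GFP pileup was 1.15 (0.632 to 3.44), with medians of 16 and 15 fragments. Over all 1896 protein-coding genes marked in both lists the median ratio was 1, with 869 higher in Cre, 846 higher in GFP and 181 equal. Some gene-end peaks of the lists overlapped at 23 of the 28 members (82.1%), and at 81.8% of all 1896 genes. The highest peaks themselves overlapped at 19 members (67.9%), and at 66.7% of all these genes. At the other 9 members, Eif1, Eif1a, Eif3d, Eif3j1, Eif4e2, Eif4ebp1, Eif5a, Eif5b and Rars2, the paired pileups come from different peaks in the windows of the gene.

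Dars, the cytosolic aspartyl-tRNA synthetase gene (chr1:128363707-128417416, - strand), had the largest ratio among the 28 members marked in both lists, which leaves out members with a peak in 1 list such as Yars2. It had 31 fragments in the Cre library (21.1 to 44) and 9 in the GFP library (4.12 to 17.1), and these intervals do not overlap. The Cre peak was at chr1:128416245-128416801 with fold 12.5 and the GFP peak, inside it, at chr1:128416552-128416748 with fold 4.94. The summits lay 733 bp and 680 bp after the start, and no other protein-coding gene ends nearby. Over all genes marked in both lists the intervals were apart at 4 of 1896 (0.211%), which were Dars, Txn1, Ndufa4 and Phf14, and the ratio of 3.44 at Dars was the largest of them. Dars was singled out after its values were seen, and with 1 library of each culture the difference compares these libraries only.

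With the 1 kb window the cytosolic synthetase genes were marked at an end more often than the mitochondrial ones, with wide intervals, but not with a window of 500 bp in the Cre list. The Cre list marked 8 of 16 cytosolic genes (50%, 24.7 to 75.3) and the GFP list 10 of 16 (62.5%, 35.4 to 84.8), with 6 in both, 2 only in Cre, 4 only in GFP and 4 in neither. Of the 17 mitochondrial genes, 5 were marked in the Cre list (29.4%, 10.3 to 56.0) and 6 in the GFP list (35.3%, 14.2 to 61.7), with 4 in both and 10 in neither. The intervals of the classes overlap in both lists. With the 500 bp window the Cre list marked 12.5% of the cytosolic and 29.4% of the mitochondrial genes, and the GFP list 25% and 23.5%. With a pileup of at least 15 the shares were 12.5% and 11.8% in both lists. Of the 2 dual genes, Gars was marked in both lists and Kars had no peak at all. Among 14 amino acids with a separate gene for each compartment, both genes of the pair were marked in at least 1 list for 5, the cytosolic gene alone for 6, the mitochondrial gene alone for 0, and neither for 3.

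**Figure D3:**
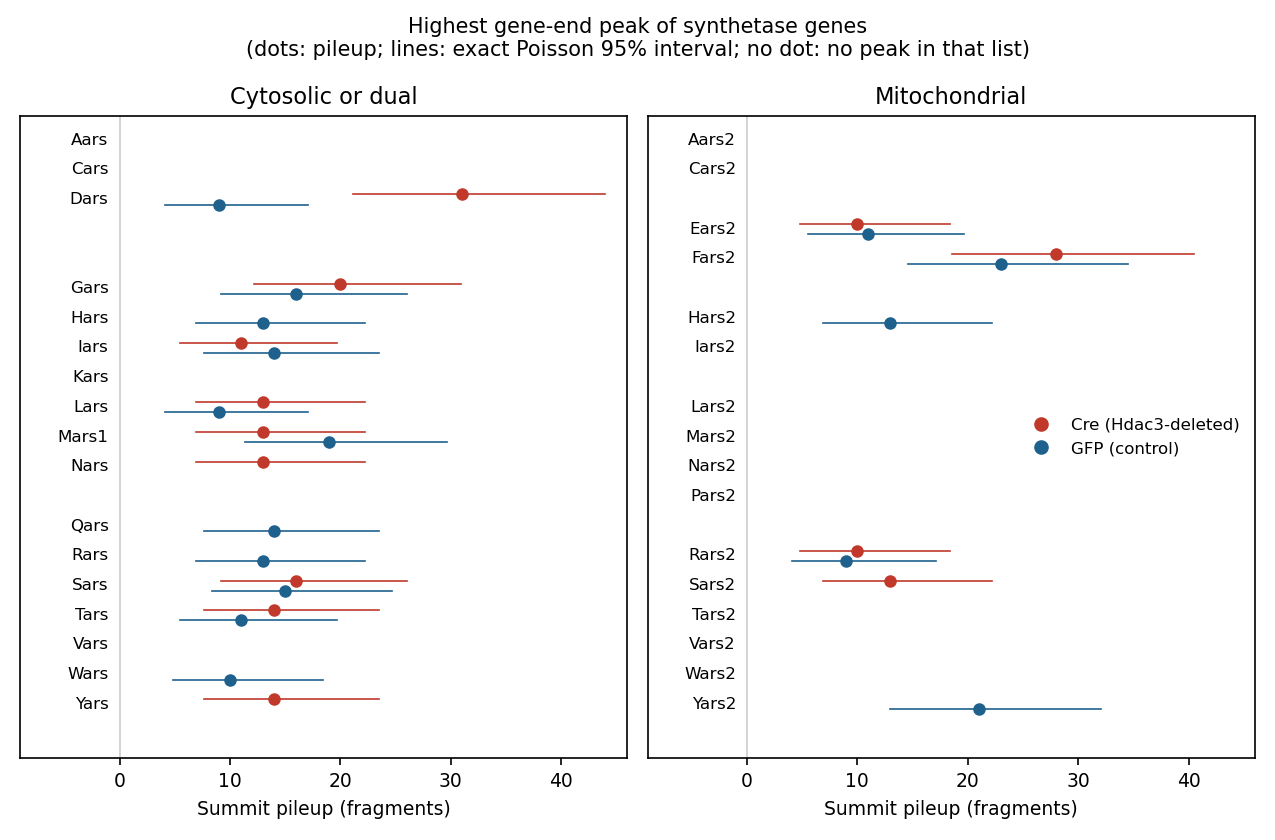
Highest gene-end summit pileup of synthetase genes, in fragments, with cytosolic and dual genes on the left and mitochondrial genes on the right, ordered by amino acid; Eprs, which charges 2 amino acids and had no gene-end peak, is not drawn. Dots are pileups, lines exact Poisson 95% intervals, and a gene without a dot had no peak in that list; the Cre and GFP intervals of Dars are apart and those of the other genes with 2 dots overlap.

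After Dars, the cytosolic genes with the most fragments were Mars1 and Sars. Mars1, the methionyl synthetase gene, had a Cre pileup of 13 and a GFP pileup of 19. Its neighbour Ddit3, the gene of the stress factor CHOP, ends within 1 kb of the gene. No other protein-coding gene ends within 1 kb of the Mars1 gene-end summits. Sars, for serine, had 16 and 15 at its start, and a further GFP peak of 14 fragments at its 3′ end. Tars, for threonine, had 14 and 11, Iars, for isoleucine, 11 and 14, and Lars, for leucine, 13 and 9. The dual gene Gars, for glycine, had 20 and 16. None of these 6 genes had intervals apart. Yars (14 fragments) and Nars (13 fragments, fold 6.97) were marked in the Cre list alone. Qars (14 fragments), Rars (13 fragments, fold 7.18), Wars (10 fragments) and Hars (13 fragments, fold 7.18) were marked in the GFP list alone.

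Several of these one-library calls had a peak of the other list close by or a doubtful owner. Rars had a Cre peak of 9 fragments inside the gene, 613 bp from the GFP summit and outside the window. Yars had a GFP peak of 12 fragments 2152 bp after its start, and its Cre gene-end peak lay at an end shared with S100pbp. The GFP peak of Qars lay at the 3′ end, where Qrich1 also has an end. The GFP peak of Wars lay at an end shared with Wdr25. Hars and its mitochondrial counterpart Hars2 lie head to head on chromosome 18 and share the 1 GFP peak, so this peak counts once for each class.

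Most marked mitochondrial genes shared the marked end with another gene. Fars2, for phenylalanine (chr13:36117428-36537595, + strand), was the highest with 28 fragments in Cre (18.6 to 40.5) and 23 in GFP (14.6 to 34.5). Its summits lay 90 bp and 129 bp after the start, in a window shared with Lyrm4. Ears2 had 10 and 11, at an end shared with Ubfd1, and Rars2 10 and 9, at an end shared with Orc3. Sars2 was marked in the Cre list alone (13 fragments, fold 6.97) next to Mrps12, a mitochondrial ribosomal protein gene. Yars2 was marked in the GFP list alone with 21 fragments (13.0 to 32.1, fold 11.29), and no Cre peak lay in its window. Of the 10 mitochondrial synthetase genes that have another protein-coding gene end within 1 kb, 5 were marked in each list, and of the 7 without one, 0 were marked in the Cre list and 1, Yars2, in the GFP list. Over all protein-coding genes the lists marked 24.3% (Cre) and 25% (GFP) of those with such a neighbour, and 9.14% and 9.62% of those without. The members as a whole did not follow this: 34.1% and 43.2% were marked with a neighbour and 38.3% and 51.1% without, and of the cytosolic synthetase genes 33.3% and 50% with and 60% and 70% without. Such a neighbour was found at 44 of 91 members (48.4%), against 24.8% of all protein-coding genes. At these ends the mark cannot be told apart between the neighbours. Neighbours were counted here from gene end to gene end and not from the peak. Qars and Eif4b therefore count as without one, though an end of Qrich1 or Tns2 lies within 1 kb of their GFP gene-end summits.

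Gene-end peaks of the cytosolic synthetase genes lay mostly after the start, while those of the initiation factor genes were placed much as in all genes. With the strand known from the RefSeq promoters for 69 members, 39 of 39 Cre gene-end peaks and 43 of 47 GFP gene-end peaks (91.5%) lay at the 5′ end, against 89.6% and 90.4% over all genes. Of the gene-end peaks within 1 kb of the start, all 6 Cre peaks of the cytosolic synthetase genes lay downstream. They lay at Mars1 (391 bp), Tars (533 bp), Yars (598 bp), Iars (677 bp), Dars (733 bp) and Sars (865 bp). In the GFP list 6 of 8 lay downstream, with a median of 627.5 bp over all 8. The exceptions were peaks of Mars1 at -196 bp and Iars at -388 bp. Eprs had no gene-end peak and is left out of these counts, but a Cre peak of 15 fragments lay at -432 bp from its start. Of the initiation factor peaks 16 of 26 Cre (61.5%) and 18 of 30 GFP peaks (60%) lay upstream, with medians of -172.5 bp and -160.5 bp. Over all genes 52.3% of 2867 Cre and 54.7% of 2969 GFP peaks lay upstream, and 47.7% and 45.3% downstream, with medians of -118 bp and -153 bp.

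**Figure D4:**
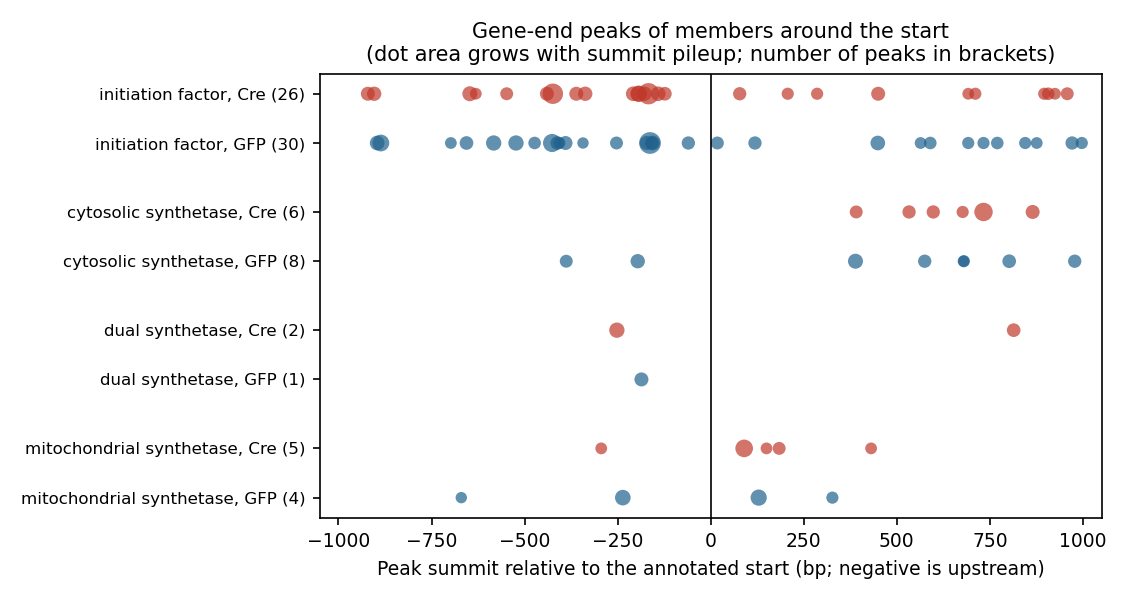
Summits of gene-end peaks around the annotated start, in bp (negative is upstream), for members with a known strand, in rows by class and list; dot area grows with summit pileup and the number of peaks stands in brackets. All 6 Cre gene-end peaks of the cytosolic synthetase genes lie to the right of the start, while 16 of 26 of the initiation factor genes lie to its left. An upstream Cre peak of Eprs is not a gene-end peak and is not drawn.

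Some annotated gene ends lie far from the start used by the promoter table, and peaks near such starts were missed. Aars, for alanine, was counted as unmarked, yet it had a Cre peak of 14 fragments 414 bp and a GFP peak of 10 fragments 543 bp after that start. Eprs, which charges glutamate and proline, had 19 and 11 fragments 567 bp and 538 bp after its start. A further Cre peak of 15 fragments lay before that start, at -432 bp. Wars2 had 18 fragments (fold 8.83) in the Cre list alone 111 bp after its start. When the window was set around these starts instead, for the 69 members in the promoter table, 30 were marked in the Cre list (43.5%, 31.6 to 56) and 33 in the GFP list (47.8%, 35.6 to 60.2), against 14% and 14.6% of 17492 protein-coding genes in that table. Of the 9 cytosolic synthetase genes it holds, 8 were marked in Cre (88.9%, 51.8 to 99.7) and 7 in GFP (77.8%, 40 to 97.2), where the gene-end window marked 6 of the same 9 genes (66.7%) in each list. Of its 14 mitochondrial genes the lists marked 5 (35.7%, 12.8 to 64.9) and 4 (28.6%, 8.39 to 58.1). This window was chosen after seeing the data.

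Inside the genes somewhat more members held a peak in the Cre list than in the GFP list, with overlapping intervals. A summit lay inside 40 of 91 members in the Cre list (44.0%, 33.56 to 54.75, background 16.1%). In the GFP list it lay inside 35 (38.5%, 28.45 to 49.25, background 16.0%). Counting only summits more than 1 kb from both ends, these were 22 members (24.2%, background 10.8%) and 16 members (17.6%, background 10.7%). With a pileup of at least 15 both lists held a peak inside 12.1% of the members. The cytosolic synthetase genes held peaks inside 12 of 16 genes in each list (75%, 47.6 to 92.7), and the initiation factors inside 19 and 20 of 56. The mitochondrial genes held them inside 8 of 17 in the Cre list (47.1%, 23.0 to 72.2) and inside 2 of 17 in the GFP list (11.8%, 1.46 to 36.4), and these intervals overlap. More than 1 kb from both ends the mitochondrial genes were Lars2 (11 fragments), Nars2 (12), Tars2 (12) and Wars2 (18) in the Cre list, and Ears2 (9) in the GFP list. At Lars2, Nars2, Tars2 and Wars2 the GFP summit nearest to the Cre summit lay 65158 bp away or farther. These 4 genes were named after their values were seen.

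Per length of gene interior, the cytosolic synthetase genes carried 2.55 Cre and 1.7 GFP peaks per 100 kb, the initiation factor genes 1.65 and 1.08 and the mitochondrial synthetase genes 0.422 and 0.105. All members together carried 1.36 and 0.872, on 39 and 25 peaks, and all protein-coding genes 0.722 and 0.716. These densities rest on 12 and 8, 23 and 15, and 4 and 1 peaks in the member classes. The densities, and the counts beyond 1 kb from both ends, include peaks within 1 kb of a start in the promoter table. Such peaks lay at Aars and Eprs in both lists, and at Yars, Wars2 and Eif5a in the Cre list. The genes with the most peaks inside were Eif4b (5 Cre and 4 GFP peaks), Eif3h (4 and 4), Eif4a2 (4 and 4), Eif1a (4 and 3), Sars (4 and 3), Aars (3 and 2) and Eprs (3 and 2). Eif3h had no gene-end peak, and its 8 peaks inside had 8 to 16 fragments. In Eif4b the first peak of each list lay 1146 bp and 1273 bp after the start, and the other 7, of 9 to 13 fragments, had no counterpart in the other list within 1 kb. Vars, for valine, was likewise marked only inside, with 1 Cre peak of 16 fragments and 2 GFP peaks of 17 and 12, the latter 30 bp from the Cre summit.

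**Figure D5:**
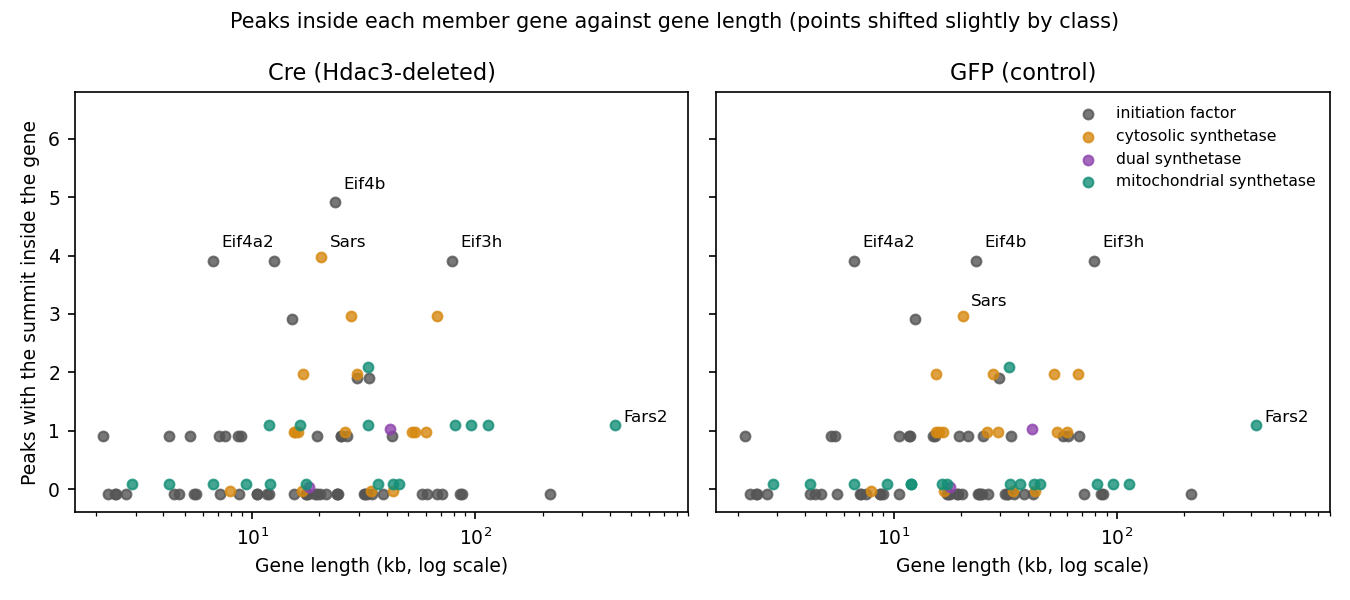
Number of peak summits inside each member gene against gene length in kb on a log axis, Cre list on the left and GFP list on the right, coloured by class with a small vertical shift per class. Eif4b holds the most in the Cre list (5), Eif4a2 reaches 4 in both lists in a short gene, and the long Fars2 holds 1 in each.

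Over all protein-coding genes, 16282 of 21887 had no peak at an end or inside in either list. The same held for 31 of 91 members. Beside those named, they include Eif1ax and Eif1b, Eif2a and Eif2d, the kinase genes Eif2ak1, Eif2ak2 and Eif2ak4, the eIF2B genes Eif2b2, Eif2b4 and Eif2b5, Eif4ebp2 and Eif4ebp3, Eif4e3, Eif4e1b, Eif5a2, Cars, and the mitochondrial Aars2, Cars2, Iars2, Mars2, Pars2 and Vars2. Absence from a list does not show absence of acetylation, since the lowest peaks of both lists hold 7 fragments and weaker sites are not listed.

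The CARE core was found near the start of cytosolic and dual synthetase genes and of no mitochondrial one. The 300-base promoters, from 250 bases before the start to 50 bases from it on, covered 69 of 91 members with 83 promoters, and motifs were searched on both strands. TGATGNAA was found in 4 of 9 promoters of cytosolic synthetase genes (44.4%, 13.7 to 78.8), which were Aars, Iars, Tars and Yars. It was also found at Gars, in 0 of 15 promoters of mitochondrial genes (upper limit 21.8%), in 1 of 57 of initiation factor genes, Eif2s3x, and in 3.60% of all 21263 promoters. Counted from the start as base 1, the matches lay at bases 4 to 11 in Yars, 8 to 15 in Iars and 10 to 17 in Aars, and before the start at -15 to -8 in Tars and -30 to -23 in Gars. Aars had a second match at -112 to -105, and Eif2s3x had its match at -96 to -89. All 6 genes had a peak in at least 1 list within 1 kb of that start. Such peaks were frequent in their class with or without a match. The Cre list held one at 88.9% and the GFP list at 77.8% of the 9 cytosolic genes. Of all 69 members the shares were 43.5% and 47.8%, and of all protein-coding genes 14% and 14.6%. A link between match and peak was not tested. At the 5 synthetase genes no called peak of either list covered a match, whereas at Eif2s3x 1 peak of each list did. A match describes letters and not binding.

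Of 4 other motifs, 3 were more frequent in these promoters than in promoters at large, and the TATA box was less frequent. The ETS core CCGGAAG was found in 32.5% of the members' promoters against 11.6% of all, the E-box CACGTG in 19.3% against 7.84%, the NRF1 core GCGCATG in 12.05% against 4.80%, and the TATA box TATAAA in 8.43% against 12.6%. Cytosolic synthetase genes held the E-box in 3 of 9 promoters and NRF1 and TATA matches in 0 of 9, and mitochondrial ones held the E-box in 1 of 15 and NRF1 and TATA matches in 3 of 15 each. No matches of different motifs overlapped in the members' promoters. The members' promoters held a median of 23 CpG sites, against 13 in all promoters, and against 22 in promoters of genes with a gene-end peak.

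Of 44 listed genes that work with the members, 18 had a gene-end peak in Cre (40.9%) and 17 in GFP (38.6%). Both lists marked 14 of them (31.8%). Over all protein-coding genes these shares were 12.9%, 13.4% and 8.66%. Of 9 genes of the eIF2 stress response, 5 were marked in both lists and 4 in neither. These 5 were Atf4 itself with 19 Cre and 21 GFP fragments, Ddit3 with 20 and 17, Trib3 with 18 and 13, and the eIF2α phosphatase subunit genes Ppp1r15a with 15 and 15 and Ppp1r15b with 24 and 17. Farsb, the cytosolic phenylalanyl synthetase subunit gene that the naming rule leaves out, had 36 and 26, and Aimp1, a scaffold of the multi-synthetase complex, 37 and 44. Of the elongation factors Eef1b2 had 24 and 18 and Eef1g 18 and 18. Etf1 (15 and 21) and Gspt1 (14 and 19), the release factor genes, were marked in both lists too, as were Paip2 (14 and 17), Aimp2 (13 and 9) and Tufm (13 and 13). Of 9 mitochondrial translation factor genes Tufm alone was marked in both lists (11.1%), which is near the 8.66% of all protein-coding genes.

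The members lay between related housekeeping groups. The 84 cytosolic ribosomal protein genes were marked at an end in 73.8% (Cre) and 69.0% (GFP), and the 48 proteasome subunit genes in 27.1% and 35.4%, against 36.3% and 47.3% of the members. The Cre list alone marked 5 members (5.49%), 8 ribosomal protein genes (9.52%) and 3 proteasome genes (6.25%), against 4.24% of all protein-coding genes. The GFP list alone marked 15 members (16.5%), 4 ribosomal protein genes (4.76%) and 7 proteasome genes (14.6%), against 4.77%.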

How the data were processed

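H3K27ac was measured by ChIP-seq in 1 library of each culture. The 2 input libraries and the RNA-seq of the series were not analysed here. Per the submitters' processing notes, build mm10 and the tools SICER, Picard, BWA and bcl2fastq 1.8.4 were used, with no role or order stated. The deposited lists have the column order of MACS2 narrow peak output; its version, settings and control library: not given in the sources used here. The deposited score equals 10 times the −log10 q-value, cut to a whole number, in 100% of rows. The deposited fold enrichment is a ratio of observed to expected pileup at the summit, with 1 added to both, and the deposited −log10 p-value and q-value refer to the same position; all are the authors' values and rank peaks only within their own list. The deposited summit offset gave the summit.

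From fold and −log10 p the number of fragments at the summit was solved, with a Poisson upper tail and trying whole numbers only. For 100% of peaks in both lists the best whole number gave the deposited −log10 p within 0.001. The total depth is unknown. Peaks, in 1-based coordinates, were placed by summit on protein-coding genes of a RefSeq table of GRCm38.p6 without strand, and strand came from RefSeq promoters. Shares carry exact Clopper-Pearson and pileups exact Poisson 95% intervals, which cover counting error only. Code in python 3.11.15 with numpy 2.4.6, scipy 1.17.1, pandas 2.3.3 and matplotlib 3.10.9 was tested on simulated data.

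Values in full were given to up to 8 members per class of highest summed pileup, to one-library members in the upper 50% of fold and to up to 6 members with most peaks inside. Other members are named for having or lacking a peak. Members and lists were chosen with earlier results of these data known. Promoters of 7 members on chromosome 18 are not shown, and the values of 1 member are not reported here.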

Additional observations from a re-analysis of the deposited data

How the results depend on the processing

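No paired analysis was possible because each group has 1 library, so no replicate could be left out either. Shares are those of members with a gene-end peak unless stated. With a window of 500 bp they were 22% (Cre) and 25.3% (GFP), for initiation factors 21.4% and 25%, and for cytosolic synthetases 12.5% and 25%, with 12 members in both lists and 8 in the Cre list alone. With 2.5 kb the Cre share was 47.3% and 9 members were in the Cre list alone. With the −log10 q-value at 5 or more the GFP share was 35.2%, 10 members were in the Cre list alone, and 30.8% had a Cre peak inside. With a pileup of at least 15 the shares were 20.9% and 18.7%, for initiation factors in GFP 21.4%, for cytosolic synthetases 12.5% in both, for mitochondrial synthetases in GFP 11.8%, and 12.1% in both lists inside; 14 members were in both lists and 3 in the GFP list alone. Inside peaks over 1 kb from both ends gave 24.2% and 17.6%. Around annotated starts, a window chosen after seeing the data, the cytosolic Cre share was 88.9% of 9 genes, 66.7% of which the gene-end window marked. Of 84 values under alternatives, these 26 counted as moved and 58 did not. Shares among the 26 lay outside the exact interval of the main share, and shares among the 58 inside it. The intervals are wide, so the 58 include large shifts. With the q-value limit the cytosolic GFP share was 37.5%, and with 2.5 kb 81.2%, against 62.5%. The q-value limit also gave a mitochondrial Cre share of 17.6%, against 29.4%, and 20 members in both lists, against 28. All-gene shares were 8.32% and 8.71% with 500 bp, 16.8% and 17.3% with 2.5 kb, 9.87% and 10.3% with the q-value limit, and 5.23% and 5.11% with the pileup limit, below the members' shares in each case. For the counts in both lists or in 1 list alone no all-gene shares are given under these alternatives.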
